A study of Mus musculus with 9 samples.

Results

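The enzymes that make, reduce and use glutathione, together with the thioredoxin, superoxide dismutase and catalase systems, were examined in mouse bone marrow stromal cells. Members were the genes of the Gst, Gpx and Prdx families and 15 named genes of glutathione synthesis, thioredoxin, superoxide removal and the Nfe2l2 response, each represented by the array row of highest mean signal. The rule found 46 genes of 19938 genes with a row of a single symbol. Gsta1, Gsta2, Gstp2, Prdx5 and Prdx6 had no such row and were not analysed here. The data are log2 signals from 9 Affymetrix Mouse Gene ST 1.0 arrays, each holding 1 sample. Sorted cells lacked CD45 and lineage antigens and carried CD54 and BP1, the products of Icam1 and Enpep. The YFP-positive group (3 arrays) held the YFP-bearing cells of that gate from IL7-Cre Transgenic/Rosa-eYFP hetero mice, in which YFP marks cells where the Il7-driven Cre is or was active. The YFP-negative group (1 array, 2300 cells) held the gated cells of the same genotype that had no YFP. The wild-type group (3 arrays) held the whole gate from mice without the reporter, and total marrow (2 arrays, from 10 ng of RNA) was unsorted wild-type marrow. All mice were C57Bl/6J young adults, the sorted ones 6 to 12 weeks old, and the labels name no treatment. Sorted samples of the YFP-positive and wild-type groups held 1800 to 10000 cells. Whether an array held 1 animal or a pool was not given, so the spread between arrays may be technical.

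Glutathione is a small thiol made in a first, rate-limiting step by glutamate-cysteine ligase, a dimer of the catalytic subunit Gclc and the modifier subunit Gclm, and in a second step by glutathione synthetase, Gss. Glutathione peroxidases use it to reduce peroxides, glutathione transferases couple it to electrophiles, and glutathione reductase, Gsr, restores it. Peroxiredoxins reduce peroxides with electrons from thioredoxin. Nfe2l2 is a transcription factor held in check by Keap1 that activates many of these genes through the antioxidant response element. In marrow, developing red cells and granulocytes are known for high antioxidant enzyme content, and mesenchymal stromal cells for secreting matrix through an oxidising endoplasmic reticulum.

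The core of that element, TGACNNNGC, was searched on both strands of the 250 bases before the start site in the RefSeq promoters of assembly GRCm38.p6. Promoters were listed for 40 of the 46 members, and 8 of the 40 genes (20.0%) held a match, against 11.5% of all 27025 listed genes. The 150 bases next to the start site follow for 3 members with a match, Gclm, Prdx1 and Txnrd1, and for Gpx3 and Gpx8, the members with the largest differences from total marrow, which had none. Sequences run 5′ to 3′ on the strand of the gene, and capitals mark the match, here in every case the element read on the opposite strand. Txnrd1 had several listed promoters, and the one with the match is shown.
Gclm, chr3:122245407-122245556, plus strand: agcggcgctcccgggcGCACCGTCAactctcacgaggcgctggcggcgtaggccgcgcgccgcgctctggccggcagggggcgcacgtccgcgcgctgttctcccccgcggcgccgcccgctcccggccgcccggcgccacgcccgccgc
Prdx1, chr4:116685449-116685598, plus strand: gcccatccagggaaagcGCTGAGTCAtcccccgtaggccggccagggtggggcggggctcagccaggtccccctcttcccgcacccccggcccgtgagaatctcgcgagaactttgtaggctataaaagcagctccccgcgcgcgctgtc
Txnrd1, chr10:82859056-82859205, plus strand: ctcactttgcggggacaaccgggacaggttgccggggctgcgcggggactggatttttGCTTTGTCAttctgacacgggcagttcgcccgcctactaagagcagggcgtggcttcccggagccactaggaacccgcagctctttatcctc
Gpx3, chr11:54902704-54902853, plus strand: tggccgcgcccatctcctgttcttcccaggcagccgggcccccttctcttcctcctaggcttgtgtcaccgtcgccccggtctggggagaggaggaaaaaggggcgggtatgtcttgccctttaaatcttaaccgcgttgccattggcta
Gpx8, chr13:113046389-113046538, minus strand: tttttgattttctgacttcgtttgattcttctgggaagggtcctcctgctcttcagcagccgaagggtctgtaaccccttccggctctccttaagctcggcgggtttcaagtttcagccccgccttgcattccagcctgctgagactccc

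The other members with a match were Gsta3, Gstm5, Gstm7, Nfe2l2 and Sod1. Against total marrow, of the 8 genes with a match 0 rose and 1, Gclm, fell in the YFP-positive group, and 1, Gstm7, rose and 1, Gclm, fell in the wild-type group. Of the 32 without, 8 rose and 6 fell in each group. Gclc, Gsr, Hmox1, Sod3, Gsta4 and Gstt2 had no listed promoter and were not searched. Of these 6 members, 2 rose and 4 fell in the YFP-positive and 2 rose and 3 fell in the wild-type group. Over all rows 11.0% rose and 18.5% fell in the YFP-positive and 10.4% and 13.9% in the wild-type group. A match is a string of letters and no measured binding site, and the window holds only the promoter next to the start site.

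The sorted arrays carried the transcripts of reticular stroma and had lower signals of blood cell markers than total marrow. The log2 of the summed signal of 6 reticular markers (Cxcl12, Lepr, Kitl, Pdgfrb, Ebf3 and Foxc1) was 13.57 to 13.76 in YFP-positive, 13.62 to 13.67 in wild-type and 6.69 to 6.77 in total marrow arrays. For 12 neutrophil lineage markers it was 12.10, 10.72 and 8.23 in YFP-positive replicates 1 to 3, 10.39, 8.03 and 7.91 in the wild-type replicates and 15.34 to 15.40 in total marrow. For 9 measured erythroid markers it was 7.40 to 7.89, 7.51 to 8.80 and 11.74 to 12.06 in the same order. Neutrophil transcripts were thus uneven across the sorted arrays, highest in YFP-positive replicate 1. YFP-positive replicate 3 had the lowest array quality weight, 0.311, where the highest was 1.69. The YFP-negative array as deposited lay below the others, with a median of 3.46 against 4.51 to 4.60, so its comparisons were read after cyclic loess normalization of all 9 arrays.

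The gated stroma and total marrow differed in which antioxidant enzymes they carried. The peroxidases Gpx8, Gpx3 and Gpx7, the transferases Gstm2, Gsta4 and Gstt1, the peroxiredoxin Prdx4 and the extracellular dismutase Sod3 rose in YFP-positive cells. Gclm, Gclc, Gsr, Gpx1, Hmox1, Gsto1 and Gstp3 fell. By limma with Benjamini-Hochberg adjustment over all rows, a call being an adjusted p under 0.05, 10 of 46 members were higher, where 11.0% of all rows were, and 11 were lower, where 18.5% were. The median log2 difference of the members was −0.16, against 0.09 over all rows tested. Wild-type cells, set against the same 2 marrow arrays, had 11 members higher, where 10.4% of all rows were, and 10 lower, where 13.9% were. Their median was −0.03 against 0.00. In either direction 45.7% of the members were called in each comparison, where the shares of all rows were 29.5% (YFP-positive) and 24.3% (wild type). A filter that kept rows above the median of all values on at least 2 arrays passed 38 of the 46, and left out Gpx2, Gpx5, Gpx6, Gsta3, Gsto2, Gstm6, Gstt4 and Nqo1. It passed 12979 of the 21789 rows, of which 46.6% were called in the YFP-positive and 39.2% in the wild-type comparison. The median differences of those rows were −0.19 and −0.06. The 45.7% counts all 46 members, also those left out by the filter, none of which was called. Here and below, counts over all members or listed genes are thus not like the filtered shares. A row could also pass on the 2 total marrow arrays alone, as that of Gstp3 did. The filtered shares thus lean on the group difference they are set beside. The part of signal level in the share of members called was not tested. In bulk samples a smaller share of cells with a transcript and less of it per cell cannot be told apart, and neither can cell type and RNA input here.

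**Figure D1:**
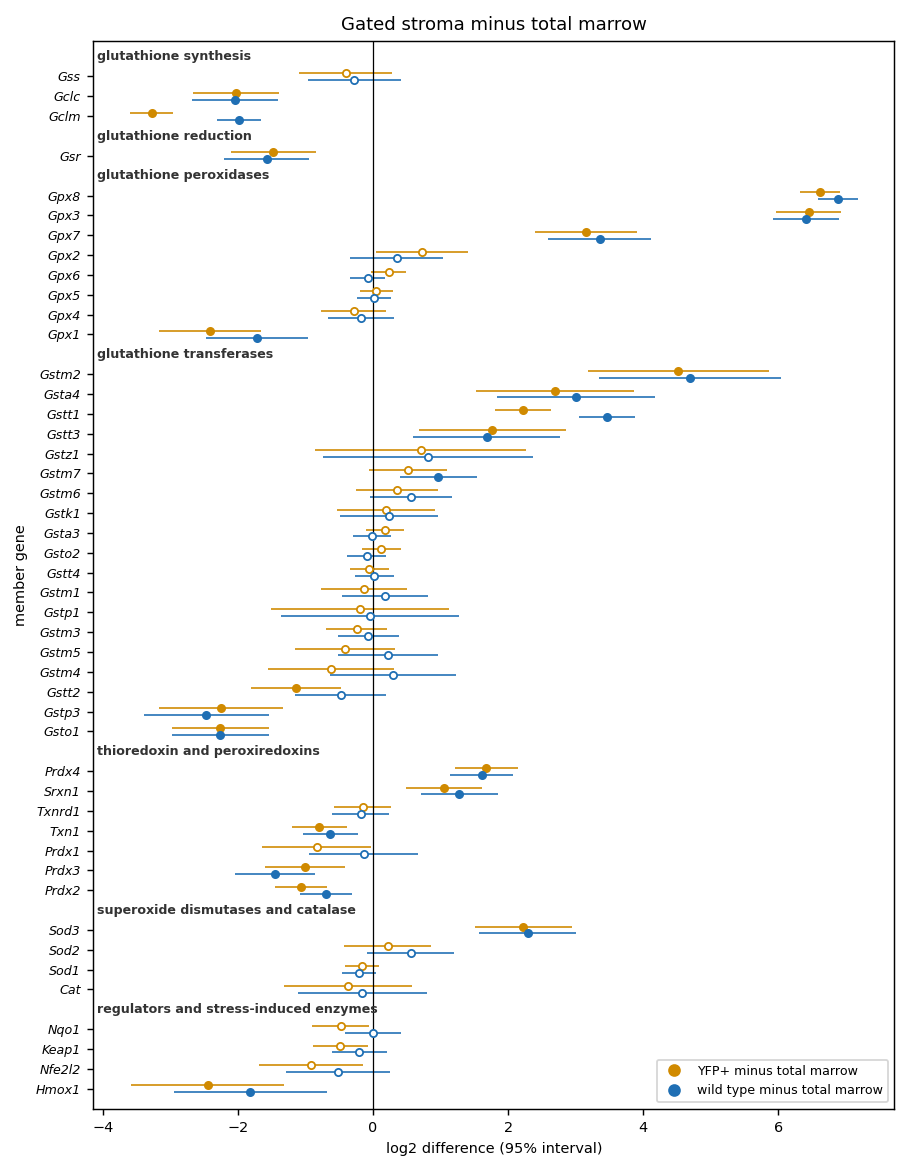
Log2 difference (x axis) of each of the 46 members (y axis, grouped by role) between YFP-positive cells and total marrow (orange) and between wild-type cells and total marrow (blue). Points are estimates from limma on deposited values, bars 95% intervals, and filled points passed an adjusted p of 0.05. Gpx8 and Gpx3 stand furthest to the right in both, and Gclm furthest to the left in YFP-positive cells.

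Transcripts of both ligase subunits of glutathione synthesis fell in the stroma. Gclm stood at 5.07, 4.76 and 4.72 in the YFP-positive arrays, 6.08, 6.22 and 6.14 in the wild-type arrays and 8.16 and 8.10 in total marrow. The 3 groups did not overlap, with total marrow highest and YFP-positive cells lowest. The log2 difference of Gclm from total marrow was −3.28 ± 0.14 in YFP-positive cells (SE, n = 3 and 2, limma adjusted p = 1.45e-06) and −1.99 ± 0.14 in wild-type cells (adjusted p = 2.26e-05). Gclc stood at 4.95, 4.97 and 5.03 in YFP-positive, 4.44, 4.99 and 5.48 in wild-type and 6.86 and 7.16 in total marrow arrays. Both sorted groups lay below total marrow and overlapped each other, and the differences were −2.03 ± 0.27 (SE, limma adjusted p = 0.00105) and −2.04 ± 0.27 (adjusted p = 0.00101). Gss, which adds glycine to finish the molecule, was not called (−0.41 and −0.28). Gsr, which regenerates reduced glutathione with NADPH, stood at 8.79, 8.14 and 7.94 in YFP-positive, 7.86, 8.34 and 8.38 in wild-type and 9.73 and 9.81 in total marrow arrays. Its values in the sorted groups overlapped and all lay below total marrow, with differences of −1.48 ± 0.27 (SE, adjusted p = 0.00482) and −1.58 ± 0.27 (adjusted p = 0.0037). The calls of Gclm, Gclc and Gsr in both comparisons held under all 16 alternatives.

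The 8 glutathione peroxidases split by member. Gpx8, a membrane-bound peroxidase of the endoplasmic reticulum, stood at 10.44, 10.53 and 10.36 in YFP-positive, 10.56, 10.73 and 10.82 in wild-type and 3.74 and 3.90 in total marrow arrays. It was higher by 6.62 ± 0.13 (SE, adjusted p = 8.83e-08) and 6.88 ± 0.13 (adjusted p = 6.6e-08). Total marrow lay below the median of all values, 4.43, so these differences are read as lower bounds. Gpx3, the secreted peroxidase of plasma, stood at 12.12, 11.47 and 11.49 in YFP-positive, 11.65, 11.76 and 11.55 in wild-type and 5.28 and 5.20 in total marrow arrays. The difference was 6.45 ± 0.21 (SE, adjusted p = 4.54e-07) in YFP-positive and 6.41 ± 0.21 (adjusted p = 4.06e-07) in wild-type cells, and no sorted array came near total marrow. Gpx7, also of the endoplasmic reticulum, stood at 8.47, 7.39 and 7.91 in YFP-positive, 8.23, 8.35 and 7.80 in wild-type and 4.52 and 5.02 in total marrow arrays. It was higher by 3.15 ± 0.33 (SE, adjusted p = 0.000243) and 3.36 ± 0.33 (adjusted p = 0.000166).

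Gpx1, the main cytosolic peroxidase and a selenoprotein, went the other way. Its arrays read 9.67, 9.58 and 8.53 in YFP-positive, 9.96, 10.11 and 9.79 in wild-type and 11.65 and 11.70 in total marrow. It was lower, with differences of −2.41 ± 0.32 (SE, adjusted p = 0.000977) and −1.72 ± 0.32 (adjusted p = 0.00599), and YFP-positive replicate 3 was the lowest array. Gpx4, which reduces lipid hydroperoxides in membranes, differed by −0.29 (95% interval −0.78 to 0.20) and −0.18 (−0.67 to 0.30) and was not called, and its second row gave −0.33 and −0.21. Gpx2, Gpx5 and Gpx6 stood below the median of all values in the group means, so their differences are not resolved.

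Members were also grouped by where the enzyme works, a grouping drawn up with these values known. Gpx3, Gpx7, Gpx8, Prdx4 and Sod3 were placed in the endoplasmic reticulum or the extracellular space. All 5 were called higher in YFP-positive cells, with differences of 1.68 to 6.62, and in wild-type cells, with 1.61 to 6.88. Over all rows 11.0% and 10.4% were higher. Gpx5 and Gpx6 were left out of this group, so it may not hold every secreted member. Both stood below the median of all values and were not called in either comparison. As the members were chosen with the values known, the count describes these 5 only and is no result about where an enzyme works. Prdx4, a peroxiredoxin of the secretory pathway, stood at 10.29, 10.15 and 9.82 in YFP-positive, 10.11, 9.99 and 9.94 in wild-type and 8.68 and 8.14 in total marrow arrays. It was higher by 1.68 ± 0.20 (SE, adjusted p = 0.000527) and 1.61 ± 0.20 (adjusted p = 0.000679). Sod3, which removes superoxide outside cells, stood at 6.78, 7.20 and 6.76 in YFP-positive, 6.80, 6.80 and 7.33 in wild-type and 4.21 and 5.17 in total marrow arrays. It was higher by 2.23 ± 0.31 (SE, adjusted p = 0.00117) and 2.29 ± 0.31 (adjusted p = 0.00102), with the marrow arrays almost 1 log2 unit apart.

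**Figure D2:**
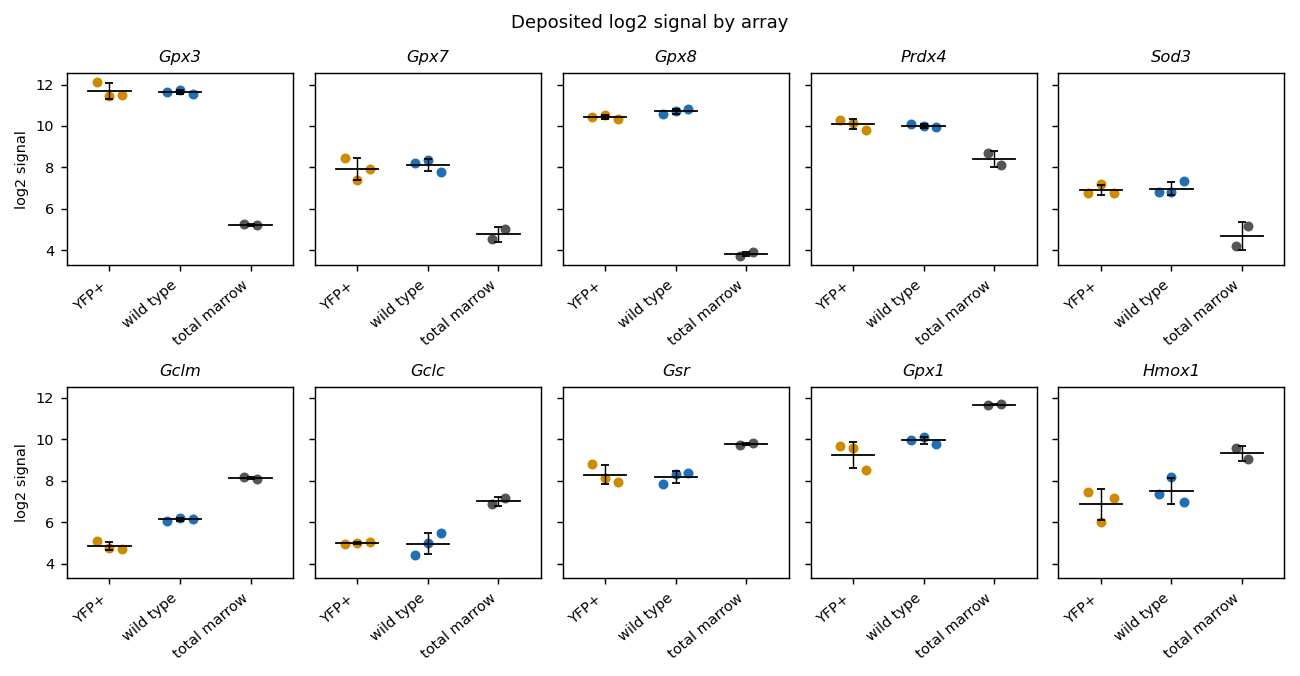
Deposited log2 signal (y axis) of 10 members on each YFP-positive, wild-type and total marrow array (points), with the group mean (line) and SD (bars). The upper row shows members of the endoplasmic reticulum or extracellular space, higher in the sorted arrays, and the lower row Gclm, Gclc, Gsr, Gpx1 and Hmox1, lower there.

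Of the 19 glutathione transferases, 4 were called higher and 3 lower in YFP-positive cells, and 5 higher and 2 lower in wild-type cells. That is 36.8% of the family in each, where 29.5% and 24.3% of all rows were called. Of the rows that passed the filter on dim rows, 46.6% and 39.2% were. The 36.8% counts all 19, also Gsta3, Gstm6, Gsto2 and Gstt4, which the filter left out and which were not called. It is thus not like the filtered shares. Gstm2, a mu-class enzyme, stood at 9.30, 9.20 and 7.23 in YFP-positive, 8.81, 8.60 and 8.82 in wild-type and 4.34 and 3.77 in total marrow arrays. YFP-positive replicate 3 was almost 2 log2 units below its group, and the differences were at least 4.52 ± 0.58 (SE, adjusted p = 0.000765) and 4.69 ± 0.58 (adjusted p = 0.000635). Gstt1, of the theta class, stood at 6.85, 6.53 and 6.72 in YFP-positive, 7.71, 8.05 and 8.04 in wild-type and 4.29 and 4.66 in total marrow arrays. The 3 groups did not overlap, and the differences from total marrow were 2.23 ± 0.18 (SE, adjusted p = 5.47e-05) and 3.46 ± 0.18 (adjusted p = 4.12e-06). Gsta4, which detoxifies the lipid aldehyde hydroxynonenal, was higher by at least 2.69 and 3.01.

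The theta-class genes did not move as one. Gstt3 was higher by at least 1.77 (adjusted p = 0.0248) and 1.68 (0.0343). The call in YFP-positive cells ended without YFP-positive replicate 1 (0.0569), total marrow replicate 1 (0.162) or 2 (0.0782), and that in wild-type cells without any 1 of the 3 wild-type (0.0594 to 0.0997) or 2 marrow arrays (0.214 and 0.102) and after quantile normalization (1.56, 0.0837). Gstt2 was lower in YFP-positive cells (−1.14, adjusted p = 0.0209), a call that ended without YFP-positive replicate 3 (0.0511) or total marrow replicate 1 (0.107) or 2 (0.108) and after quantile normalization (−0.93, 0.0614), and was not called in wild-type cells (−0.48). Gstt4 stood below the median of all values in every group.

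Gsto1 and Gstp3 were the transferases that fell in both sorted groups. Gsto1, an omega-class thiol transferase, stood at 4.16, 4.45 and 5.04 in YFP-positive, 4.17, 4.67 and 4.81 in wild-type and 7.08 and 6.54 in total marrow arrays. It was lower, with differences of −2.26 ± 0.31 in each (SE, adjusted p = 0.00109 and 0.0011). Gstp3 stood at 3.98, 3.86 and 4.33 in YFP-positive, 3.84, 3.73 and 3.94 in wild-type and 7.07 and 5.54 in total marrow arrays, so the marrow arrays differed from each other by over 1 log2 unit. Its differences, −2.25 ± 0.39 (SE, adjusted p = 0.00405) and −2.47 ± 0.39 (adjusted p = 0.00263), are bounds, since the sorted means lay below the median of all values.

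Most other transferases were not called. Gstp1, abundant in many tissues, averaged 10.07 ± 1.17 (SD, n = 3) in YFP-positive, 10.22 ± 0.12 (SD, n = 3) in wild-type and 10.26 ± 0.09 (SD, n = 2) in total marrow arrays. Its YFP-positive arrays read 9.99, 8.94 and 11.28, a spread that leaves a 95% interval of −1.51 to 1.12 for the difference from total marrow. Gstm1 differed by −0.13 (−0.76 to 0.51) and 0.17 (−0.46 to 0.81). Gstm7 was called in wild-type cells only (at least 0.97, adjusted p = 0.0245), not without total marrow replicate 1 (0.117) or 2 (0.133), and its difference between YFP-positive and wild-type cells was not called (−0.45, adjusted p = 0.372). On a second row of low signal Gstm3 was called higher in wild-type cells (0.43, adjusted p = 0.0496), with both groups below the median of all values. In the row numbering of the array that row lies among the other Gstm rows, and the main row of Gstm3 lies apart. Whether the main row reads Gstm3 was not checked. By their main rows Gsta3, Gstk1, Gstm3, Gstm4, Gstm5, Gstm6, Gsto2 and Gstz1 were not called in either comparison. Gst genes of a class are alike in sequence, and how far probes of one row take up its neighbours' transcripts is not known here.

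Of the 7 genes of the thioredoxin and peroxiredoxin system, 2 rose (Prdx4 and Srxn1) and 3 fell (Prdx2, Prdx3 and Txn1) in each sorted group. Srxn1, sulfiredoxin, which repairs overoxidised peroxiredoxins, stood at 6.02, 5.61 and 5.81 in YFP-positive, 6.27, 5.95 and 5.89 in wild-type and 5.13 and 4.39 in total marrow arrays. It was higher by 1.05 ± 0.24 (SE, adjusted p = 0.014) and 1.28 ± 0.24 (adjusted p = 0.00634), and the call in YFP-positive cells ended without total marrow replicate 2 (0.68, adjusted p = 0.0947). Prdx3, the mitochondrial peroxiredoxin, was lower, with differences of −1.01 ± 0.25 (SE, adjusted p = 0.0204) and −1.45 ± 0.25 (adjusted p = 0.00428). The call in YFP-positive cells ended under cyclic loess (−0.69, adjusted p = 0.127) and quantile normalization (−0.63, 0.193) and without total marrow replicate 1 (0.149) or 2 (0.0614). Prdx2, abundant in red cells, was lower, with differences of −1.06 ± 0.16 (SE, adjusted p = 0.00215) and −0.70 ± 0.16 (adjusted p = 0.0178). These calls ended under cyclic loess (−0.51 and −0.42, adjusted p = 0.082 and 0.155) and quantile normalization (−0.55 and −0.44, 0.0727 and 0.16), and that in wild-type cells also without wild-type replicate 1 (0.0582) or 3 (0.0571) or total marrow replicate 1 (0.117) or 2 (0.0854). Its second row gave −1.52 and −0.71. After cyclic loess normalization that row averaged 7.67 in YFP-positive, 8.21 in wild-type and 8.71 in total marrow arrays. The alternatives above were followed on the main row, and which row lies at the Prdx2 locus was not checked.

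Txn1, thioredoxin itself, was lower, with differences of −0.80 ± 0.17 (SE, adjusted p = 0.0115) and −0.64 ± 0.17 (adjusted p = 0.0334) on deposited values. After cyclic loess normalization the differences were −0.11 (adjusted p = 0.526) and −0.25 (0.177), after quantile normalization −0.10 (0.574) and −0.23 (0.201), so both calls ended under either normalization. They also ended without total marrow replicate 1 (0.0911 and 0.197) or 2 (0.0536 and 0.115), and in wild-type cells without any wild-type array (0.0583 to 0.0963). Txnrd1, thioredoxin reductase, and the cytosolic Prdx1 were not called (−0.15 and −0.18, and −0.84 and −0.14). Neither were Cat, the peroxisomal catalase (−0.37 and −0.16), Sod1, the cytosolic dismutase (−0.16 and −0.21), nor Sod2, the mitochondrial one (0.21 and 0.56). The second row of Prdx1 averaged 9.07 in YFP-positive, 9.81 in wild-type and 9.96 in total marrow arrays on deposited values. Which Prdx1 row lies at the gene's locus was not checked. Sod1 was nearly level on deposited values, at 10.91 to 11.24 over the 8 arrays. After cyclic loess normalization it read 10.90 to 11.24 in YFP-positive, 10.59 to 10.81 in wild-type and 10.47 and 10.58 in total marrow arrays.

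Of the regulators and inducible enzymes, Hmox1, which degrades haem, stood at 7.44, 6.02 and 7.14 in YFP-positive, 7.35, 8.18 and 6.96 in wild-type and 9.58 and 9.05 in total marrow arrays. The sorted groups overlapped each other and lay below total marrow, with differences of −2.45 ± 0.49 (SE, adjusted p = 0.00736) and −1.82 ± 0.49 (adjusted p = 0.03). The first call ended without total marrow replicate 1 (0.0712), and the second without wild-type replicate 1 (0.0843) or 3 (0.0861), total marrow replicate 1 (0.204) or 2 (0.0845), or after quantile normalization (−1.66, 0.0536). Nfe2l2 stood at 9.15, 8.17 and 8.05 in YFP-positive, 9.02, 9.03 and 8.52 in wild-type and 9.42 and 9.34 in total marrow arrays. Its differences, −0.92 ± 0.33 (SE, adjusted p = 0.077) and −0.52 ± 0.33 (0.363), were not called, but the first was without YFP-positive replicate 1 (−1.26, adjusted p = 0.00373) and with array weights (0.0312). Keap1 stood at 5.14, 5.25 and 4.88 in YFP-positive, 5.60, 5.25 and 5.27 in wild-type and 5.44 and 5.71 in total marrow arrays, and was not called (−0.48 and −0.20). Nqo1, a quinone reductase and a common readout of Nfe2l2, read 3.34, 3.51 and 3.25 in YFP-positive, 3.95, 3.52 and 4.06 in wild-type and 3.89 and 3.80 in total marrow arrays. All lay below the median of all values, so its differences are not resolved. In YFP-positive cells it was called lower after cyclic loess normalization (−0.62, adjusted p = 0.0431), with trend and robust eBayes (0.0484) and without wild-type replicate 2 (0.0368).

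Of 75 further genes of glutathione transport, NADPH supply, thiol repair and the Nfe2l2 response, 71 had a row; Ggt1, G6pdx, Mat2a and Ahcy had none. Against total marrow, 10 of them rose and 28 fell in the YFP-positive group, with a median of −0.39, and 10 rose and 20 fell in the wild-type group, with a median of −0.32. Over all rows 11.0% rose and 18.5% fell in the first and 10.4% and 13.9% in the second comparison, with medians of 0.09 and 0.00. Over the rows that passed the filter on dim rows the shares were 16.2% and 30.4%, and 17.2% and 22.0%. Their medians were −0.19 and −0.06. Ggt5, a gamma-glutamyl transferase of the cell surface, was higher by 4.31 and 4.33, and the carbonyl reductase Cbr3 by at least 4.24 and 4.29. The epoxide hydrolase Ephx1 (2.90 and 2.67), the reticulum methionine sulfoxide reductase Msrb3 (2.77 and 2.56) and Akr1b8 (at least 2.54 and 3.05) rose too, as did Txnip, which binds thioredoxin (1.30 and 0.87). Mgst2 (−5.08 and −5.65) and the erythroid factor Nfe2 (−4.65 and −5.21), both read as bounds, Mgst3 (−3.34 and −2.33) and Msrb1 (−2.68 and −3.01) fell. So did Tkt (−3.36 and −2.83) and Taldo1 (−3.22 and −3.46), both of the pentose phosphate pathway. The cystine transporter gene Slc7a11 fell too (−1.50 and −1.64, read as bounds), and Mgst1 was not called (−0.76 and 0.06).

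The YFP-marked cells were then set against the whole wild-type gate, from which they also differ in genotype. No member was called by limma (0 of 46, where 0% of all rows were), and 8 members had an unadjusted p under 0.05, 1 higher and 7 lower. Over all rows 14.9% did, 5.80% higher and 9.12% lower. The members' differences were below 0 in 31 of 46, with a median of −0.16 against 0.05 over all rows. Over the rows that passed the filter on dim rows the median was −0.13. Of the members, 30 had a 95% interval within 1 log2 unit of 0. The lowest p-values belonged to Gclm, with −1.29 ± 0.12 (SE, n = 3 and 3, 95% interval −1.58 to −1.01, adjusted p = 0.068), and to Gstt1, with −1.23 ± 0.16 (−1.60 to −0.86, adjusted p = 0.0806). Every YFP-positive array lay below every wild-type array for both. Without YFP-positive replicate 1 Gclm was called (−1.40, adjusted p = 0.043), and over the alternatives its difference ranged from −1.40 to −1.14. Its partner Gclc differed by 0.02 (−0.55 to 0.59).

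Nqo1 (−0.48), Gpx1 (−0.69), Gstt2 (−0.66), Prdx2 (−0.37) and Gstm4 (−0.91) were the other members with an unadjusted p under 0.05 on the lower side, and Gpx6 (0.31) the one on the higher side. None of these was called, with adjusted p of 0.279 to 0.329, and both Nqo1 and Gpx6 stood below the median of all values. On the higher side Gsto2 (0.22) and Prdx3 (0.44) came next. The 5 members placed above in the endoplasmic reticulum or extracellular space gave small differences between YFP-positive and wild-type cells. Gpx3 differed by 0.04 (−0.39 to 0.47), Prdx4 by 0.07 (−0.35 to 0.49) and Sod3 by −0.06 (−0.70 to 0.58). Gpx7 differed by −0.20 (−0.88 to 0.48) and Gpx8 by −0.26 (−0.53 to 0.00). Spread within the groups was uneven, with a median SD of the members of 0.26 in YFP-positive and 0.21 in wild-type arrays, against 0.21 and 0.15 over all rows. Gstz1, which isomerises maleylacetoacetate, reached 6.93 in YFP-positive replicate 1 against 4.45 and 4.74 in the others, and Cat fell to 6.90 in replicate 3 against 8.42 and 8.14. The neutrophil marker sums, given above, were higher in YFP-positive replicates 1 and 2 than in replicate 3, while Gclm stood at 5.07 and 4.76 against 4.72. The part of neutrophil transcripts in these differences was not tested.

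**Figure D3:**
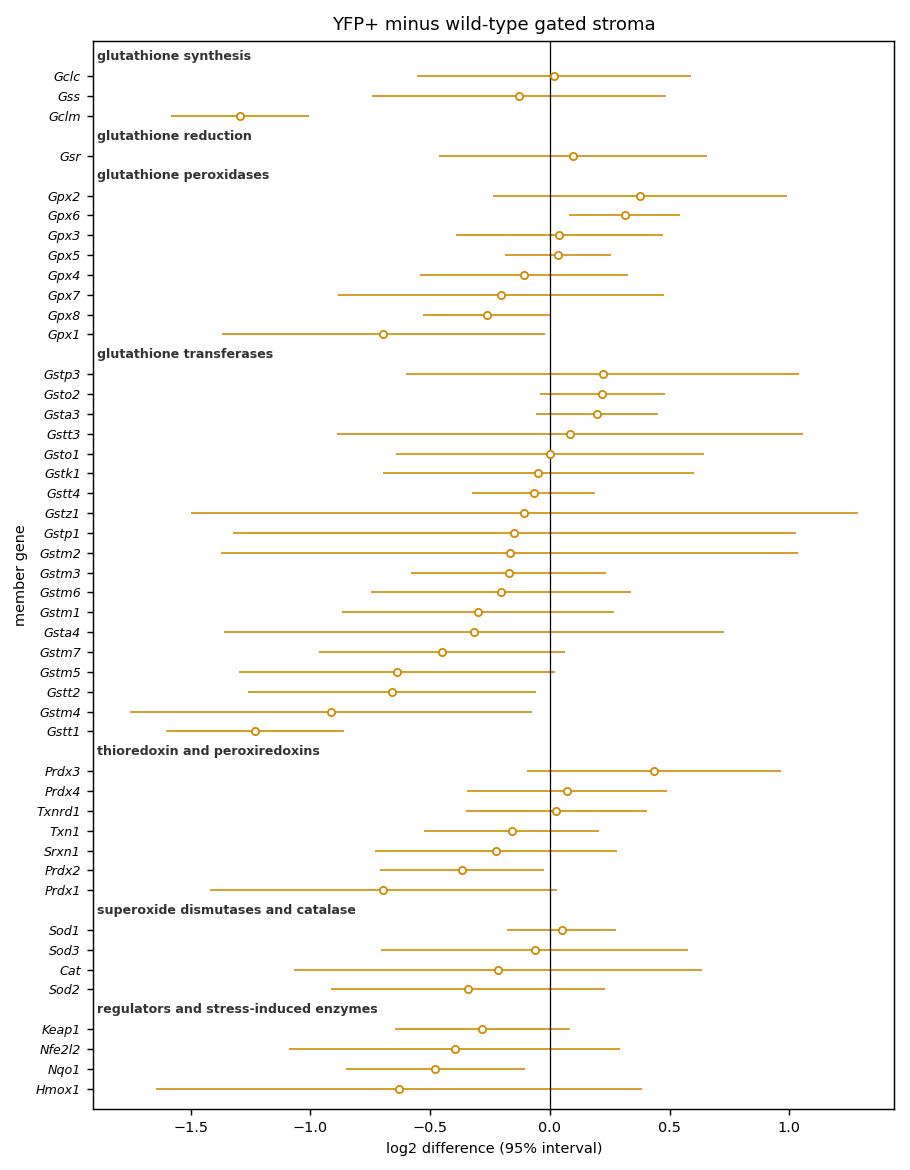
Log2 difference (x axis) of each of the 46 members (y axis, grouped by role) between YFP-positive and wild-type gated cells, with 95% intervals from limma on deposited values. Open points did not pass an adjusted p of 0.05, which holds for all 46. Gclm (−1.29) and Gstt1 (−1.23) stand furthest to the left.

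The YFP-negative array was set against the other groups on the cyclic loess scale, where a single array has no spread of its own, so limma took that of the replicated groups, and array and group cannot be told apart. Against total marrow 10 members were higher, where 13.0% of all rows were, and 7 lower, where 13.2% were (26.2% in either direction). Of the rows that passed the filter on dim rows, 18.4% were higher and 20.4% lower. Gpx8 (at least 7.86), Gpx3 (6.82), Gpx7 (at least 4.11), Gstm2 (at least 3.93) and Gsta4 (at least 3.82) were higher by most, and Gclm (−3.13), Gsto1 (−2.65, a bound), Gstp3 (−2.49, a bound) and Prdx3 (−1.80) lower by most. Gstt1 (at least 3.50), Prdx4 (2.52), Sod3 (at least 2.23) and Srxn1 (1.63) were higher as well, but on deposited values Sod3 (0.76, adjusted p = 0.126) and Srxn1 (0.20, 0.587) were not called. Gpx1 (−1.58, adjusted p = 0.0128), Gsr (−1.30, 0.0166) and Txn1 (−0.74, 0.0101) were lower. Without total marrow replicate 2 the calls of Gpx1 (0.0527) and Gsr (0.0656) ended, and without replicate 1 that of Prdx3 (0.06). Gstm3 was higher (0.88, adjusted p = 0.0322) on this scale but lower on deposited values (−0.51) and not called after median centring (0.58, 0.107), with trend and robust eBayes (0.0516), nor without wild-type replicate 1 (0.0522) or 2 (0.0503) or total marrow replicate 1 (0.0912) or 2 (0.121). Gclc was not called (−0.65, adjusted p = 0.267), though it was on deposited values (−2.06, 0.00228). Hmox1 was not called either (−1.95, 0.0618), but was called lower under 6 of 16 alternatives. These were deposited values (−3.36, 0.00334), median centring (−2.26, 0.0286), the filter on dim rows (0.0336), trend and robust eBayes (0.0386), array weights (0.0271) and leaving out YFP-positive replicate 2 (0.0169).

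Gclm was the 1 member called between the YFP-negative array and wild-type cells. On the loess scale it read 4.77 in the YFP-negative array, 5.91, 5.96 and 5.97 in the wild-type arrays and 4.97, 4.68 and 4.78 in the YFP-positive arrays. The YFP-negative value lay below all wild-type arrays and within the YFP-positive range. It was lower than wild type, with a difference of −1.17 ± 0.14 (SE, n = 1 and 3, limma adjusted p = 0.0146), where 1.57% of all rows were lower and 4.56% were called in either direction. This call ended in the fit with the replicate number as a block and held under the other 15 of 16 alternatives. The difference was −2.60 on deposited values, −1.38 after quantile normalization and −1.53 after median centring. On deposited values the median over all rows was −0.88, so a lower call there adds little. Between the YFP-negative and YFP-positive arrays Gclm differed by −0.04 (95% interval −0.37 to 0.30). As deposited, where the median over all rows was −0.91, the difference was −1.31, and it was −0.19 after quantile normalization and −0.20 after median centring.

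Against YFP-positive cells, 0 of 46 members were called by limma, where 2.62% of all rows were higher and 1.36% lower (3.98% in either direction). An unadjusted p under 0.05 was found for 12 members (21.9% of all rows), 7 higher (12.4%) and 5 lower (9.50%). Nearest to a call stood Gstm3, at 6.22 in the YFP-negative array against 5.49, 4.95 and 5.15 (1.03, adjusted p = 0.0538), and Txn1, at 10.10 against 10.90, 10.65 and 10.64 (−0.63, 0.0576). The second row of Gstm3 read 4.39 against 3.67, 3.86 and 3.80, all below the median of all values. That row lies among the other Gstm rows of the array, and whether the main row reads Gstm3 was not checked. Gstt1 followed, at 7.65 against 6.71, 6.43 and 6.80 (1.00, 0.0613), a signal within the wild-type range of 7.50 to 7.80. Gpx8 read 11.12 against 10.29, 10.47 and 10.50 (0.70, 0.0805). On the lower side Prdx3 read 6.01 against 6.59, 7.06 and 7.69 (−1.10, 0.137), and Sod2 6.17 against 6.89, 7.23 and 8.12 (−1.24, 0.147). For each of these genes the YFP-negative array lay outside the YFP-positive range, as it did for 28 of the 46 members. The share over all rows was not counted and the genes were picked by p-value, so nothing is drawn from this. Gclc read 6.21 in the YFP-negative array, 4.89 to 5.06 in YFP-positive and 4.31 to 5.37 in wild-type arrays, and was not called against either (1.26, adjusted p = 0.101, and 1.39, 0.0769). It was called against wild type without wild-type replicate 3 (1.66, 0.0398) and with array weights (1.44, 0.0424). Nfe2l2 read 9.36 against 9.0, 8.11 and 8.19 (0.93, adjusted p = 0.179), and was called without YFP-positive replicate 1 (1.22, 0.0336). Leaving out that array also gave calls of Gstm3 (1.18, 0.0278) and Prdx3 (−1.37, 0.0447). Gstm3 was called as well after quantile normalization (0.0439), with array weights (0.0427) and with its rows averaged (0.82, 0.0215), Txn1 with array weights (0.0442), and Gstt1 (0.94, 0.0447) and Gpx8 (1.02, 0.0211) after median centring. On deposited values 29 of 46 members were called lower than in YFP-positive cells, where 75.4% of all rows were, and Gstm3, Gstt1, Gpx8 and Gclc turned negative. Of the further pathway genes, Tkt (−1.74) and Blvrb (−0.81) were lower than in YFP-positive cells. Tkt (−2.02), Mgst3 (−1.84), Ccs, the copper chaperone of Sod1 (−1.28), and Blvrb (−0.79) were lower, and the selenium carrier Selenop (0.94) higher, than in wild-type cells. The share of the 71 genes called was below that of all rows against YFP-positive cells and above it against wild-type cells. These calls rest on 1 array, and the lower ones ended in the fit with the replicate number as a block. Other alternatives were not followed for these genes.

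**Figure D4:**
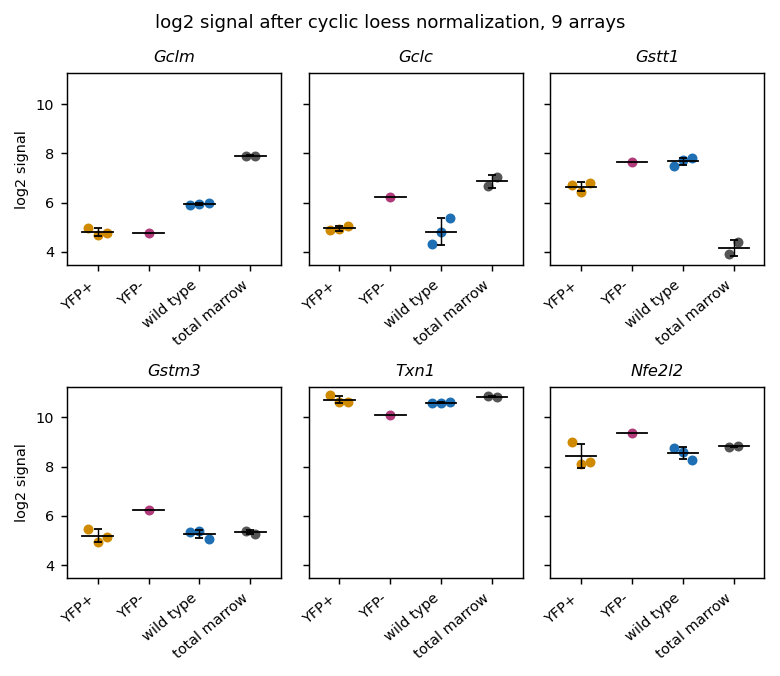
Log2 signal after cyclic loess normalization (y axis) of 6 members on each of the 9 arrays (points) by group, with the mean (line) and, for groups of several arrays, the SD (bars). The YFP-negative array reads 4.77 for Gclm, within the YFP-positive arrays, and 7.65 for Gstt1, within the wild-type arrays.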

How the data were processed

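Amplification of the RNA used NuGEN's Ovation Pico WTA V2 kit, per the labels' protocols. The authors deposited one log2 signal per transcript cluster for each array, computed with Affymetrix Expression Console 1.3.1 and RMA, per the submitters' processing notes; probe annotation and genome build are not given in the sources used here, nor whether all arrays were summarised together. Of 35556 rows, 21789 pair with 1 gene symbol in the platform annotation and were tested; 1621 rows with several symbols and 12146 with none were left out. Entrez identifiers of 21698 rows matched the reference gene table, with 0 symbols changed.

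All 9 arrays entered 1 limma fit (limma 3.58.1, R 4.3.3) with a mean per group and default eBayes, 5 residual degrees of freedom, two-sided tests and Benjamini-Hochberg adjustment over all rows; calls needed an adjusted p below 0.05. Comparisons with the YFP-negative array used cyclic loess values of the 9 arrays and the others deposited values. Intervals are 95%. A difference whose lower mean, but not its higher one, falls under the median of all values (4.43 deposited, 4.53 loess) is read as a lower bound; with both under it, as not resolved; this is a stated cut, not a detection limit. Arrays have no depth, and their number limits the precision. Members given per array were Gclm, Gclc, Nfe2l2, Keap1, Hmox1 and Nqo1, the 4 largest called changes in each direction of a comparison, or the 3 smallest p in each direction where none was called, and some others beyond that rule. Pathway genes were named where among the 4 largest called changes in a direction or Ggt5, Slc7a11, Mgst1 and Txnip. Alternatives were other scalings, a filter on dim rows, eBayes with trend and robust options, array weights, row averaging, a replicate block and leaving out arrays. The members, lists and rules were chosen with earlier results of these data known. The fit was tested on simulated data.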

Additional observations from a re-analysis of the deposited data

How the results depend on the processing

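Of the 21 members called between YFP-positive cells and total marrow, 14 calls held under all 16 alternatives, as did 16 of 21 for wild-type cells and 11 of 17 for the YFP-negative array. Leaving out single arrays gave 16 to 24, 16 to 22 and 14 to 19 calls in these comparisons. Between YFP-positive and wild-type cells it gave 0 to 1, and every other alternative 0. The count between the YFP-negative and YFP-positive arrays went from 0 to 29 on deposited values, 1 after quantile normalization, 3 after median centring, 2 with array weights, 1 with averaged rows and 0 to 3 without single arrays. Against wild type it went from 1 to 30, 2, 5, 5 and 2 in the same order and 1 to 2 without single arrays, and against total marrow from 17 to 33 on deposited values. On deposited values 75.8%, 75.1% and 71.9% of all rows were called in these comparisons and the medians of all rows were −0.91, −0.88 and −0.85; after median centring the medians were 0.20, 0.20 and 0.25. Deviations of same-numbered YFP-positive and wild-type arrays had correlations of −0.06, −0.03 and −0.01, where those of different numbers ran from −0.12 to 0.16. With so few arrays this cannot exclude a shared day or animal, and the labels name none for a replicate number. With a replicate block the counts were 20, 17, 0, 0, 0 and 15 in the order of the text, the difference of Gclm between the YFP-negative and wild-type arrays was −1.22 (adjusted p = 0.0759, no longer called), and that of Hmox1 against YFP-positive cells turned to −0.090. The block also ended the calls of Gstt3 in YFP-positive (0.0813) and wild-type cells (0.107), of Prdx2 (0.0607), Txn1 (0.0717) and Hmox1 (0.0887) in wild-type cells, and of Gstm3 (0.0722) and Gsr (0.0626) in the YFP-negative array, all against total marrow. Small differences also changed sign. Nqo1 between wild-type cells and total marrow was 0.030 after quantile normalization and 0.0097 after median centring, and −0.11 to 0.16 without single arrays. Gclc between YFP-positive and wild-type cells was −0.015 after median centring and −0.25 to 0.27 without single arrays. Between the YFP-negative and YFP-positive arrays, deposited values turned Hmox1 to −0.91, Nqo1 to −0.70, Gclc to −0.039, Keap1 to −0.96, Gstm3 to −0.27, Gstt1 to −0.18 and Gpx8 to −0.095. Without single arrays Gclm there was −0.12 to 0.037 and Hmox1 −0.37 to 0.34. Against wild type, deposited values turned Nfe2l2 to −0.30, Gclc to −0.020 and Keap1 to −1.24 (−0.16 after median centring), and Hmox1 was −0.53 to 0.038 without single arrays. Against total marrow they turned Gstm3 to −0.51 and Nfe2l2 to −0.82, and Keap1 was −0.25 to 0.052 without single arrays. These signs were followed only for called members and those given per array by rule. Other members changed sign too. The YFP-positive means of Gpx4, Gstm1, Gstp1 and Sod1, among others, lay below total marrow on deposited values and above it after cyclic loess normalization. The cause of these changes was not tested. Signals under the median of all values limit Gpx2, Gpx5, Gpx6, Gsta3, Gstm6, Gsto2, Gstt4 and Nqo1.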
